A study of Mus musculus with 4 samples.

Results

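The immediate early response genes are 10 genes that many cell types transcribe within minutes of a growth factor, stress or handling stimulus, without new protein synthesis. The members were fixed by name and taken from the deposited gene tables, which hold 49997 genes. They are Fos, Fosb, Jun, Junb, Egr1, Egr2, Ier2, Ier3, Dusp1 and Nr4a1. All 10 were found and all 10 were among the 19837 genes that passed the filter on low counts. Their poly(A) RNA was read in the aorta-gonad-mesonephros (AGM) of the mouse embryo, the site where blood stem cells arise, kept as explants. Every explant came from C57BL/6J embryos and was cultured for 48 hours at the gas-liquid interface with hydrocortisone, which both groups shared. The 2 untreated libraries had no drug, and the 2 CCCP libraries had 5 µM CCCP for 48 hours, a protonophore that dissipates the proton gradient across the inner mitochondrial membrane. The growth protocol names embryonic days 10.5 and 11.5 and the series design day 10.5 alone. The cells are labelled as stem cells, yet the extraction protocol describes RNA of whole explants. No label says that libraries of a group came from separate cultures, so p-values measure only the spread between these libraries, which may be technical.

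Immediate early genes are switched on by kinase cascades that end on factors already bound at their promoters. ERK and p38 kinases act on the ternary complex factors that sit with SRF on CArG boxes, and CREB acts on cyclic AMP response elements. The transcripts carry destabilising elements and are cleared quickly, so their level follows the most recent stimulus to the cells. Fos and Jun family proteins pair as AP-1, Egr proteins are zinc finger factors, Nr4a1 is an orphan nuclear receptor, and Dusp1 is a phosphatase that switches off the kinases themselves. In tissue work the family is also known to respond to dissection and dissociation.

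None of the 10 genes passed the test of CCCP against untreated (threshold 0.05, quasi-likelihood test of edgeR, Benjamini-Hochberg over all genes), and the smallest adjusted p among the 10 was 0.343, for Ier2. The share of all genes called was 0%, so the members' count of 0 matches the background. DESeq2 called 3.32% of the genes to which it gave an adjusted p, and none of the members. At an unadjusted p under 0.05 the count was 0 of 10 members in edgeR, against 14.6% of all genes tested (5.45% higher and 9.16% lower with CCCP). The log2 fold changes of the members ran from -0.16 to 0.46, with a median of 0.05, beside a median of -0.01 over all genes tested. For each of the 10, the difference between the group means was smaller than the larger of the 2 gaps between libraries of the same group, whereas it was larger than that gap for 36.1% of all genes tested. Each member thus had a pair of libraries of the same group that lay further apart than the 2 group means.

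The 4 libraries held between 37360968 and 48827826 counted reads, and the detection floor of 3 counts came to 0.0599 to 0.0827 CPM (counts scaled to a common library size by TMM). Markers of the labelled cell type and of supporting tissue were both present. Summed over 9 blood stem and progenitor markers the level was 143 to 180 CPM. Among them Kit was the highest, at 47.6 to 63.2 CPM, and Gfi1 the lowest, at 4 to 12 counts. The 6 mesenchymal markers summed to 2337 to 3839 CPM, mostly from Col3a1 (1306 to 2303 CPM) and Col1a1 (550 to 887 CPM). The sums hold unlike genes, so they do not measure shares of cells. The 6 hepatic markers summed to 1334 and 792 CPM in untreated explants, against 3.38 and 61.7 CPM with CCCP, and their part in the comparison of the members was not tested. In bulk libraries, fewer cells of a type and less RNA per cell cannot be told apart.

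Promoter stretches are shown for 4 members that held a match to a searched motif. Of the elements named above, Egr2 held the CArG box and Dusp1 the full cyclic AMP response element, TGACGTCA. Fos and Fosb held matches to its first bases, TGACG, and none to the full element. Induction from these windows was not tested. RefSeq windows on GRCm38.p6, running from 250 bases before to 50 after each start, were found for 8 of the 10 members, not for Egr1 and Ier2. The 250 bases before the start follow for Fos (chr12:85473640-85473889, plus strand), Fosb (chr7:19310046-19310295, minus strand) and Dusp1 (chr17:26508473-26508722, minus strand), and for Egr2 the 30 bases around each of its 2 CArG boxes (chr10:67537484-67537513 and chr10:67537787-67537816, plus strand). Each start is that of the RefSeq window. For Fos and Dusp1 it is also the outer start of the gene in the count files. For Fosb it lies at 19310045, 73 bases inside the gene of the files, so both marked motifs fall within that gene's span. Both boxes of Egr2 lie within the span of Egr2 in the files, before starts inside it. Capitals mark the CArG box in Egr2, TGACG in Fos, TGACG and GCGGGGGCG in Fosb, and TGACG and TGACGTCA in Dusp1.
Fos: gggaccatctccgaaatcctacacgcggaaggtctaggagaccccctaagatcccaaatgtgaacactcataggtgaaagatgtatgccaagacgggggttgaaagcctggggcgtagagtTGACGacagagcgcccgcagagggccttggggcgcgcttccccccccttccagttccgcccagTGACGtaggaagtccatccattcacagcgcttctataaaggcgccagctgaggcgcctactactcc
Fosb: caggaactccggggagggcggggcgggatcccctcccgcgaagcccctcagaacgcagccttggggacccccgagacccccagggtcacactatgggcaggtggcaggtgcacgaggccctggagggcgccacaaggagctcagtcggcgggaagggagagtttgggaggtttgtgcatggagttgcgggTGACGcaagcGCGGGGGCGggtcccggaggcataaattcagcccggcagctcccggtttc
Dusp1: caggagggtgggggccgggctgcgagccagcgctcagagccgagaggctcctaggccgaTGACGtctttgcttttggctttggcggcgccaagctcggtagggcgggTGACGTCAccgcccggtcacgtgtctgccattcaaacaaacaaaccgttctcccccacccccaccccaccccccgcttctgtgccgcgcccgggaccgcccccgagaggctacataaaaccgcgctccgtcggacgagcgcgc
Egr2, upstream box: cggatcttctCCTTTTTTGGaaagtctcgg
Egr2, downstream box: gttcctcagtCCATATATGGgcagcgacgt

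Motifs were searched on both strands of the whole windows. The 8 members had 12 windows, with several for Egr2. Members are counted by gene and the background by window, so the 2 shares are not of the same unit. The CArG box, which SRF binds, was found in 1 of the 8 members, Egr2, and in 1.63% of all 32851 RefSeq windows. The full cyclic AMP response element TGACGTCA was found in Dusp1 alone, from 143 to 136 bases before its start, and in 1.79% of all windows. Its first bases, TGACG, which the full element contains, were found in 6 of the 8 members and in 20.8% of all windows. Fos held TGACG at 129 and at 66 bases before its start, and Fosb at 60. The Egr site GCGGGGGCG was found in Fosb and Nr4a1 and in 2.91% of all windows. The AP-1 site TGANTCA was found in none of the 8 members and in 7.81% of all windows. The matches describe these letters within these windows, and TGACG was added to the search after the other motifs had been counted.

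Compared per length of transcript, Ier2 and Jun were the most abundant members and Egr2 the least. On the TPM scale, which divides counts by the exon lengths in the files, the mean over the 4 libraries was 136 ± 18.9 for Ier2 and 121 ± 15.5 for Jun (SD over the 4 libraries of both groups), with ranges that overlapped. Egr1 followed at 50.3 ± 22.4 TPM and Dusp1 at 40.7 ± 4.22 TPM, also overlapping, and then Junb at 29.4 ± 4.87 TPM and Fos at 20.9 ± 5.47 TPM, overlapping as well. Nr4a1 stood at 7.94 ± 1.48 TPM and Ier3 at 7.33 ± 1.003 TPM, again overlapping. Fosb at 1.67 ± 0.527 TPM and Egr2 at 0.451 ± 0.182 TPM lay apart from each other and from the rest at these lengths. Summed over the 10 members, the level was 449 and 383 TPM in untreated explants, against 433 and 396 TPM with CCCP. In CPM, which does not divide by length, the sum was 366 and 329 in untreated explants, against 394 and 373 with CCCP. The groups thus overlapped in summed TPM and not in summed CPM.

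The level of Ier3 and Egr2 depended on the length used. The annotation placed exons of Ier3 on 2 alternate contigs besides chromosome 17, and exons of Egr2 on 1 fix contig besides chromosome 10. The files' exon length sums these copies, 3272 bases for Ier3 against 1090 on chromosome 17, and 7237 bases for Egr2 against 3808 on chromosome 10. With the length on the main chromosome, a choice made after the files were seen, Ier3 stood at 21.3 ± 2.88 TPM, next to Fos, and Egr2 at 0.829 ± 0.336 TPM, where its range overlapped that of Fosb. Reads that align equally to several copies were not counted, and whether the alignment held these contigs is not given in the sources used here, so the levels of both genes are uncertain while the comparison between libraries uses the same copies throughout.

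**Figure D1:**
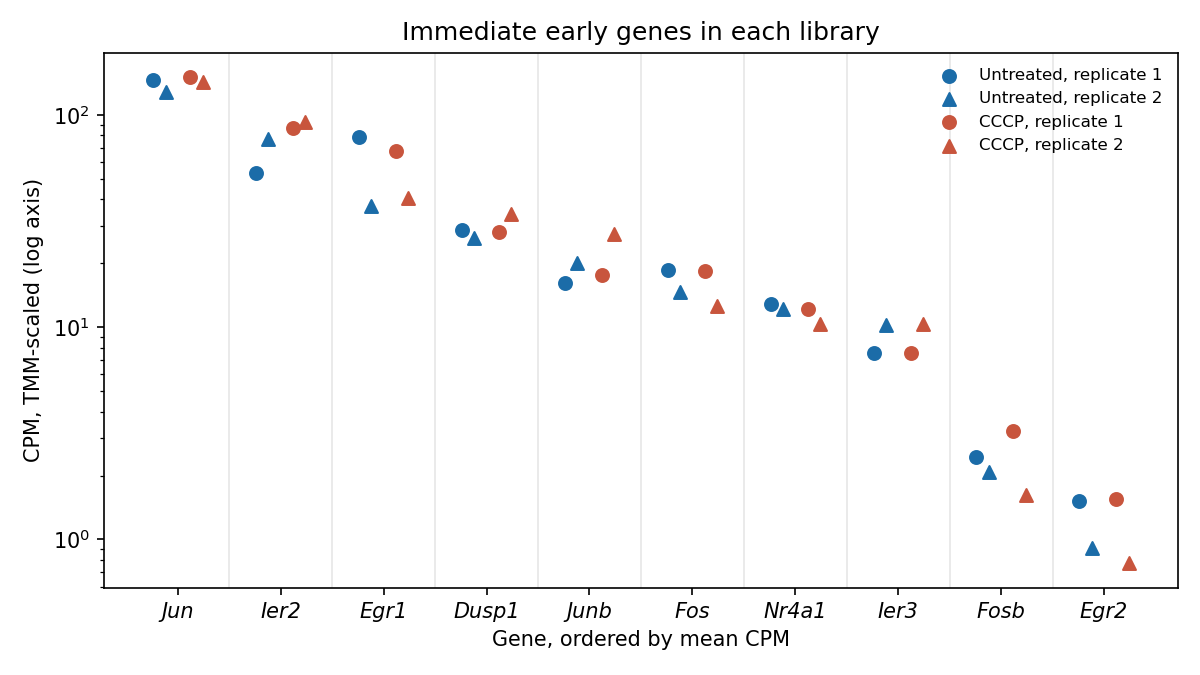
CPM (TMM-scaled, log axis) of the 10 members in each library, with untreated libraries in blue, CCCP libraries in red, replicate 1 as circles and replicate 2 as triangles. The symbols of Egr1 separate by shape rather than by colour, at 78.3 and 67.8 CPM in replicate 1 and 37.1 and 40.4 CPM in replicate 2.

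Among the AP-1 members, Fos (chromosome 12, 85473890 to 85477274), the inducible partner of Jun, had 18.7 and 14.7 CPM in untreated replicates 1 and 2, against 18.4 and 12.7 CPM in CCCP replicates 1 and 2, the order kept for every gene that follows. The groups overlapped, and both replicate 1 libraries lay above both replicate 2 libraries. Its log2 fold change was -0.10 (standard error 0.243), with a 95% interval from -0.69 to 0.49 and an edgeR adjusted p of 0.871, and it turned positive without untreated replicate 1 (0.09) or CCCP replicate 2 (0.15). Fosb (chromosome 7, 19302696 to 19310118), a Fos paralog, had 2.44 and 2.09 CPM in untreated explants, against 3.26 and 1.63 CPM with CCCP, on 59 to 158 counts. The CCCP libraries held both the highest and the lowest value, so the untreated pair lay inside the CCCP pair. Fosb had a log2 fold change of 0.11 (standard error 0.419; edgeR adjusted p 0.918), and without CCCP replicate 1 it was -0.47.

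Jun (chromosome 4, 95049036 to 95052222), which can pair with itself as well as with Fos, had 146 and 128 CPM in untreated explants, against 150 and 144 CPM with CCCP. Its log2 fold change had the smallest standard error of the 10, at 0.10 (standard error 0.122) and a 95% interval from -0.20 to 0.40, at an edgeR adjusted p of 0.722. Junb (chromosome 8, 84976909 to 84978748), a Jun paralog that can restrain Jun, had 16.1 and 20.1 CPM in untreated explants, against 17.6 and 27.5 CPM with CCCP. CCCP replicate 2 was the highest of the 4, while CCCP replicate 1 lay between the untreated libraries. Junb had a log2 fold change of 0.31 (standard error 0.253; edgeR adjusted p 0.581), and without CCCP replicate 2 it was -0.03. The ratio of Fos to Jun in TPM was 0.193 and 0.174 without the drug and 0.185 and 0.133 with CCCP, lowest in CCCP replicate 2.

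Both zinc finger factors differed more between libraries of a group than between groups. Egr1 (chromosome 18, 34861207 to 34864956), a direct target of SRF and the ternary complex factors, had 78.3 and 37.1 CPM in untreated explants, against 67.8 and 40.4 CPM with CCCP. Both replicate 1 libraries lay above both replicate 2 libraries, and the 2 groups spanned nearly the same range. Replicate 1 exceeded replicate 2 by a factor of 2.11 in the untreated pair (exact 95% interval 1.99 to 2.25) and 1.68 in the CCCP pair (1.58 to 1.78). These intervals cover counting error only, and both reads of a pair were counted, which makes them too narrow. The log2 fold change between groups was -0.09, and its standard error was 0.387 (edgeR adjusted p 0.930). It was 0.56 without untreated replicate 1, -0.50 without untreated replicate 2, -0.51 without CCCP replicate 1 and 0.24 without CCCP replicate 2, so its direction depended on which library was left out.

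Egr2 (chromosome 10, 67534469 to 67542188), an Egr1 relative that governs hindbrain segments and Schwann cells, had 1.52 and 0.909 CPM in untreated explants, against 1.54 and 0.772 CPM with CCCP. These values rest on 76, 34, 75 and 28 counts. The ratio of replicate 1 to replicate 2 was 1.67 in the untreated pair (exact 95% interval 1.10 to 2.58) and 2.002 in the CCCP pair (1.28 to 3.21). Both intervals exclude 1 when each read is taken as independent, but both reads of a pair were counted, which makes these intervals too narrow. The log2 fold change between groups was -0.06 (standard error 0.516), with a 95% interval from -1.32 to 1.19, the widest among the 10 members, and an edgeR adjusted p of 0.965. It turned positive without untreated replicate 1 (0.37) and without CCCP replicate 2 (0.35). Of its 3808 exon bases on chromosome 10, 154 are shared with the predicted gene Gm32255 on the other strand, and reads of the 2 strands were counted together.

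Ier2 (chromosome 8, 84661331 to 84662852), an early response gene that encodes a nuclear protein, was the member with the largest group difference. It had 53.3 and 77.4 CPM in untreated explants, against 87.0 and 92.1 CPM with CCCP. The CCCP pair lay wholly above the untreated pair, which 24% of all genes tested also showed, and untreated replicate 1 stood lowest. The log2 fold change was 0.46 (standard error 0.189), with a 95% interval from -0.004 to 0.91 and an edgeR adjusted p of 0.343. Leaving out untreated replicate 1 gave 0.22 and leaving out untreated replicate 2 gave 0.78, with adjusted p between 0.066 and 0.883 when any 1 library was left out. Once a trend with GC content was removed from each library, the log2 fold change was 0.27 and the CCCP and untreated values overlapped.

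Ier3 (chromosome 17, 35821713 to 35822911), an early response gene linked to cell survival, had 7.59 and 10.2 CPM in untreated explants, against 7.56 and 10.3 CPM with CCCP. The groups had nearly the same mean and range, and replicate 2 was the higher library in each. The log2 fold change was 0.01 (standard error 0.263; edgeR adjusted p 0.991), with a 95% interval from -0.63 to 0.65. Its sign turned when a library was left out, from -0.22 without CCCP replicate 2 to 0.27 without untreated replicate 2.

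Dusp1 (chromosome 17, 26505591 to 26508472), the phosphatase that inactivates p38, JNK and ERK, had 28.8 and 26.2 CPM in untreated explants, against 28.2 and 34.0 CPM with CCCP. It was the single member whose replicates lay in opposite order in the 2 groups. The log2 fold change was 0.18 (standard error 0.154; edgeR adjusted p 0.614), or 0.05 without CCCP replicate 2 and 0.31 without CCCP replicate 1. Nr4a1 (chromosome 15, 101253902 to 101274795), the nuclear receptor Nur77, had 12.9 and 12.2 CPM in untreated explants, against 12.1 and 10.3 CPM with CCCP. Both CCCP libraries lay below both untreated libraries, though CCCP replicate 1 and untreated replicate 2 nearly met, and 24.8% of all genes tested showed this order. Nr4a1 had a log2 fold change of -0.16 (standard error 0.190; edgeR adjusted p 0.717), and it was -0.04 without CCCP replicate 2 and -0.28 without CCCP replicate 1. With a GC trend removed it was -0.31 (edgeR adjusted p 0.569). The difference of the group means then exceeded the larger gap, as it did for 31.6% of all genes in that setting.

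**Figure D2:**
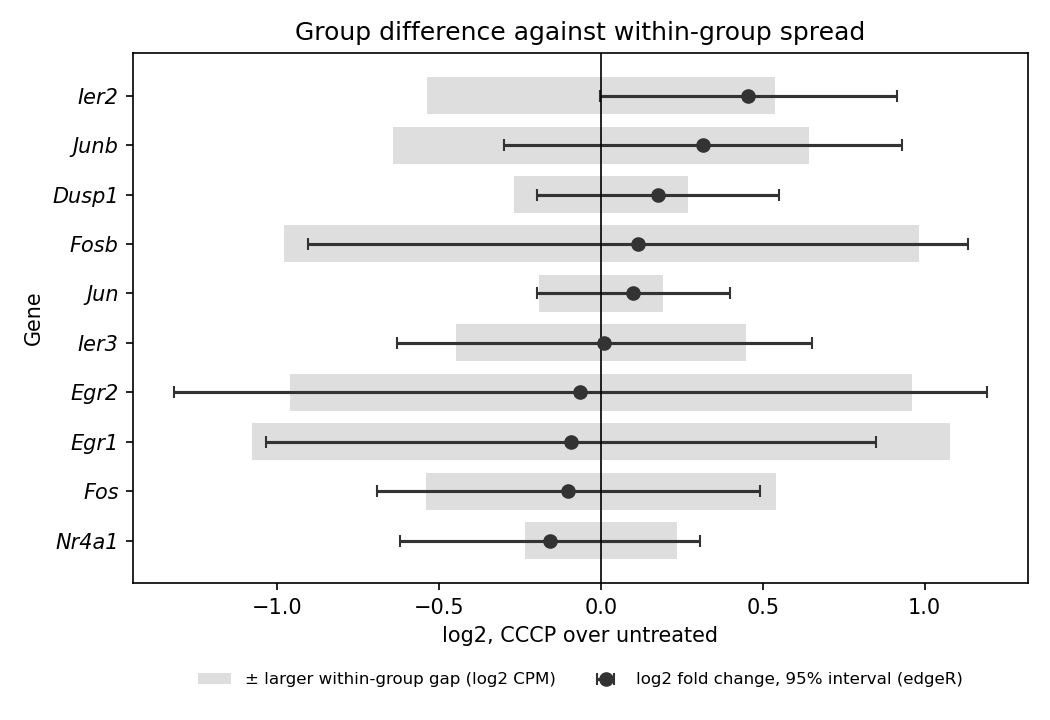
Log2 fold change of CCCP over untreated for each member (points, with 95% intervals from edgeR as lines) and the larger of its 2 within-group gaps in log2 CPM drawn to both sides of 0 (grey bars). Every point lies inside its bar, and every interval includes 0, that of Ier2 narrowly, from -0.004 to 0.91.

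The gaps within groups ran the same way in both groups for most members. The gap was taken as replicate 1 minus replicate 2 in log2 CPM. In 9 of 10 members it had the same sign in the untreated and the CCCP pair, as it had in 64.2% of all genes tested. Replicate 1 was higher in both pairs for 6 members, namely Fos (0.34 and 0.54), Fosb (0.22 and 0.98), Jun (0.19 and 0.07), Egr1 (1.08 and 0.75), Egr2 (0.71 and 0.96) and Nr4a1 (0.08 and 0.23). Replicate 1 was lower in both pairs for 3 members, namely Junb (-0.31 and -0.64), Ier2 (-0.54 and -0.08) and Ier3 (-0.42 and -0.45). The members therefore did not move as a block: the Fos and Egr pairs went one way, and Junb, Ier2 and Ier3 the other. Of all genes tested, 13.7% had a larger gap than the larger one of Egr1, 16.2% than that of Fosb, 16.7% than that of Egr2 and 76.4% than that of Jun.

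Egr1 and Egr2 were higher in replicate 1 by at least 0.6 in both pairs, as were 5.77% of all genes tested. No member was lower in replicate 1 by that much in both pairs, as 2.23% of all genes tested were. Among the 38 other immediate early genes tested, 2 met the same limit, Egr3 and Nr4a2, a share near that of all genes. The limit was set after the values had been seen. Egr3, a further Egr factor, had 2.70 and 1.12 CPM in untreated explants, against 2.14 and 1.21 CPM with CCCP. Nr4a2, the nuclear receptor Nurr1, had 22.3 and 9.84 CPM in untreated explants, against 17.0 and 8.63 CPM with CCCP. The limit fixes the order of these libraries, and the groups of both genes overlapped.

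**Figure D3:**
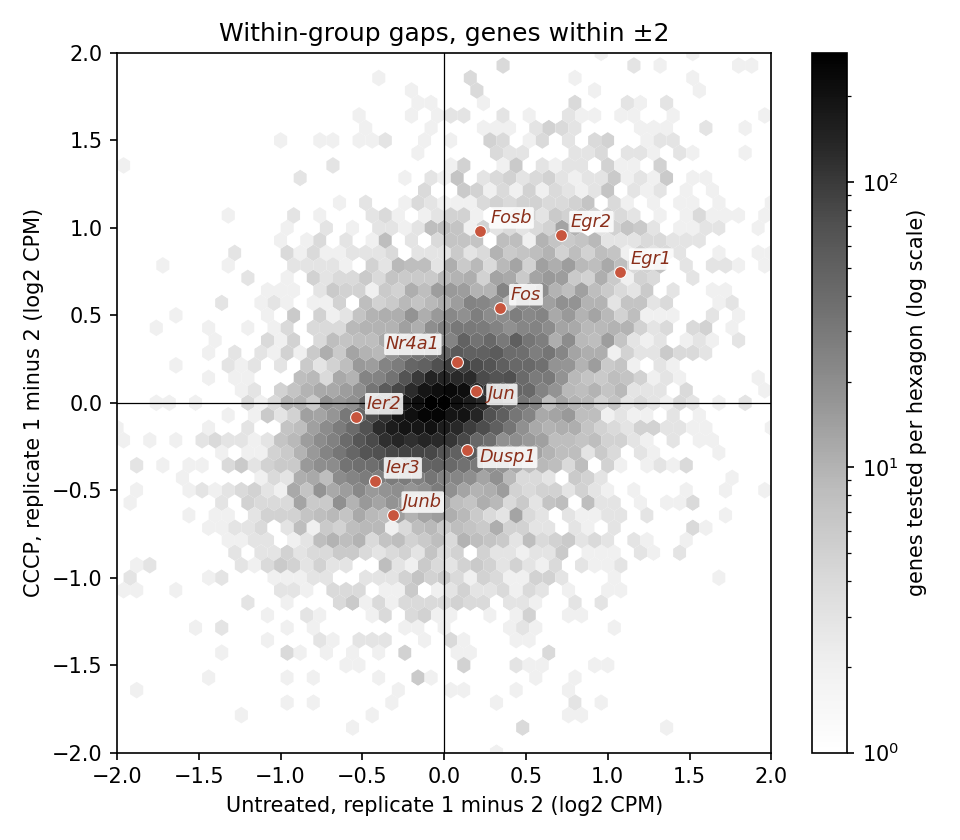
Gap between replicates 1 and 2 in log2 CPM, in the untreated pair (horizontal) against the CCCP pair (vertical), for 19178 genes tested (grey hexagons, darker with more genes) and the 10 members (red, named). Members in the upper right and lower left have gaps of the same sign in both groups. Dusp1 alone lies in the lower right, and 659 genes beyond 2 in either gap are not drawn.

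Some other measures also followed the replicate number, and others did not. Replicate 1 was the deeper library in each group, at 48216849 and 48827826 counts against 37360968 and 37579087, and its share of mitochondrial genome counts was higher, at 2.32% and 2.35% against 2.11% and 2.05%. The mesenchymal markers summed to 3839 and 3229 CPM in replicate 1 and to 2337 and 2648 CPM in replicate 2, and 5 of the 6 were higher in replicate 1 in both groups. The 5 kidney and gonad markers summed to 195 and 175 CPM in replicate 1 and to 123 and 119 CPM in replicate 2, and all 5 were higher in replicate 1 in both groups. The erythroid sum went the opposite way in both pairs, and the endothelial sum did so in the untreated pair alone. The 6 erythroid markers summed to 876 and 992 CPM in replicate 1 and to 1294 and 2285 CPM in replicate 2, with 4 of the 6 lower and 1 higher in replicate 1 in both groups. The 7 endothelial markers summed to 402 and 409 CPM in replicate 1 and to 530 and 407 CPM in replicate 2, with 4 lower and 0 higher in replicate 1 in both groups. Of all genes tested, 31.0% were higher and 33.2% lower in replicate 1 in both groups, so 64.2% kept 1 order. In the other marker lists, 0 of 6 hepatic, 1 of 4 smooth muscle and 3 of 6 macrophage genes tested kept 1 order. So did 3 of 5 skeletal muscle, 4 of 6 neural and 5 of 8 blood stem and progenitor genes. The part of these measures in the gaps of the members was not tested. No label says what a replicate number marks.

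A wider set of immediate early genes held no call either. Of 40 further genes of this kind, 38 passed the filter and 0 were called, with a median log2 fold change of 0.04 and a range from -0.95 to 0.69. At an unadjusted p under 0.05, 2 were higher and 0 lower, against 5.45% and 9.16% of all genes tested. Jund, the AP-1 member that most cells express steadily, had 153 and 167 CPM in untreated explants, against 231 and 216 CPM with CCCP, without overlap, and a log2 fold change of 0.48 (standard error 0.119; edgeR adjusted p 0.215). Rhob, an early response GTPase, had 144 and 141 CPM in untreated explants, against 190 and 195 CPM with CCCP, also without overlap, and a log2 fold change of 0.43 (standard error 0.109; edgeR adjusted p 0.222). Plk2 and Mcl1, a kinase and an anti-apoptotic Bcl2 relative, overlapped between groups, with log2 fold changes of 0.03 and 0.10. Groups did not overlap for 12 of the 38 genes, 8 with CCCP above and 4 with CCCP below, where all genes tested gave 24% above and 24.8% below, so these genes did not separate the groups more often than other genes.

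Upstream of the members stands the MAP kinase cascade. All 24 genes of that list passed the filter and 0 were called. At an unadjusted p under 0.05, 3 were higher and 3 lower, against 5.45% and 9.16% of all genes tested, and the median log2 fold change was 0.06. Map2k2, the kinase MEK2 that activates ERK, had 87.2 and 106 CPM in untreated explants, against 134 and 147 CPM with CCCP, a log2 fold change of 0.54 (edgeR adjusted p 0.227). Mapkapk2, a kinase under p38, had a log2 fold change of 0.44 (edgeR adjusted p 0.242), and Mapk3, which encodes ERK1, of 0.20 (edgeR adjusted p 0.536). Braf, a kinase at the head of the ERK cascade, had 89.9 and 79.2 CPM in untreated explants, against 42.5 and 47.4 CPM with CCCP, and its log2 fold change of -0.91 had a standard error of 0.129 (edgeR adjusted p 0.144).

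Factors known to act on promoters of the members are SRF, the ternary complex factors, CREB and MEF2. Of 15 SRF, ternary complex, CREB and MEF2 genes, 0 were called, 3 were lower and 0 higher at an unadjusted p under 0.05 (9.16% and 5.45% of all genes tested), and the median log2 fold change was -0.08. Srf itself had 84.9 and 88.0 CPM in untreated explants, against 91.4 and 99.8 CPM with CCCP, a log2 fold change of 0.14 (edgeR adjusted p 0.572). Elk3 and Mef2d, a ternary complex factor and a MEF2 factor, had log2 fold changes of -0.03 and -0.12 with overlapping groups. Mef2a, another MEF2 factor, had 108 and 97.3 CPM in untreated explants, against 68.6 and 73.4 CPM with CCCP, and a log2 fold change of -0.53 (edgeR adjusted p 0.195).

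Among 15 feedback inhibitors of ERK signalling and of Egr factors, 0 were called, as were 0% of all genes tested. At an unadjusted p under 0.05 in edgeR, 1 was lower and 0 higher, against 9.16% and 5.45% of all genes tested. The median log2 fold change of the 15 was 0.05. Dusp4 and Dusp6, phosphatases of MAP kinases, had log2 fold changes of -0.10 and 0.12. Dusp6 had 68.3 and 107 CPM in untreated explants, against 79.2 and 111 CPM with CCCP, so it was ordered by replicate number with replicate 2 higher, opposite to Egr1. The Egr corepressors Nab2 and Nab1 stood apart in value, with log2 fold changes of 0.18 (edgeR adjusted p 0.593) and -0.76 (edgeR adjusted p 0.183). Of 14 genes known as AP-1 targets, 12 passed the filter and 0 were called, the same share as over all genes tested. At an unadjusted p under 0.05 in edgeR the count was also 0, against 14.6% of all genes tested. The median log2 fold change of the 12 was 0.14. Mmp14, Ccnd1, Ezr and Cd44 had log2 fold changes of 0.13, -0.25, 0.36 and -0.40, with edgeR adjusted p between 0.364 and 0.745.

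**Figure D4:**
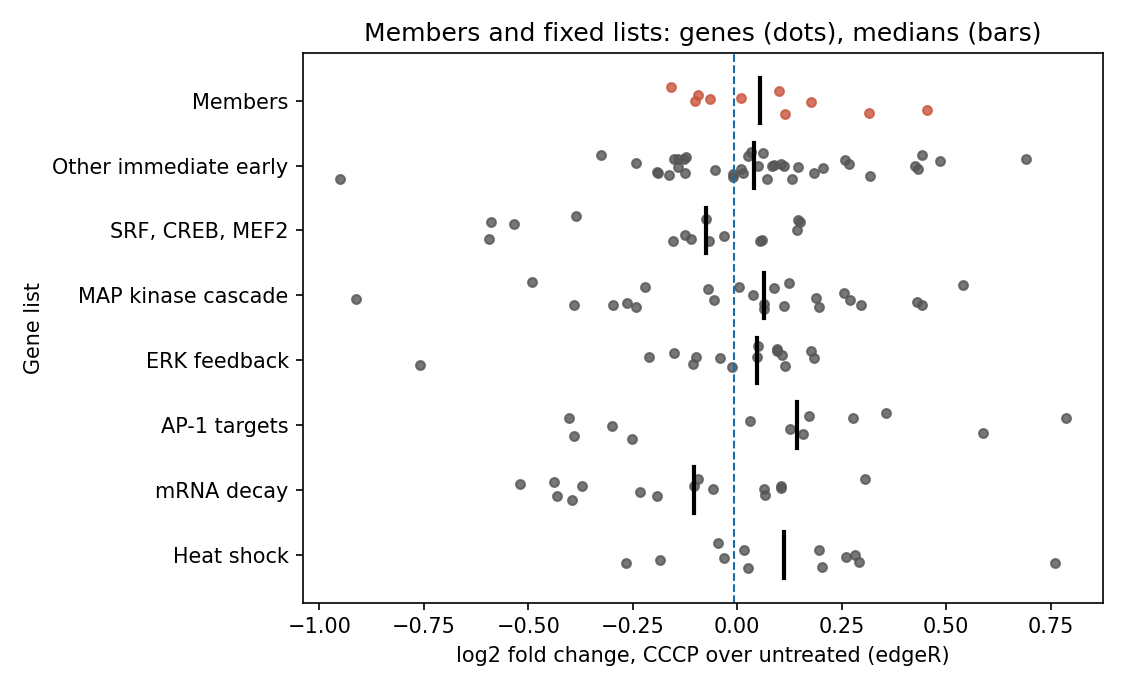
Log2 fold change of CCCP over untreated for the members (red) and for the genes of 7 lists (grey), with the median of each as a black bar and the median of all genes tested, -0.01, as a dashed line. The members span -0.16 to 0.46, and the medians of the lists lie between -0.10 and 0.14.

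The genes whose pattern over the 4 libraries came closest to the mean of the members included Brd3, Fblim1, Tdrd7 and Pknox2, out of 10780 genes with a mean of at least 10 CPM. Likeness was the root mean square difference in centred log2 CPM, 0.00393 for Brd3, 0.00583 for Fblim1 and 0.0152 for Pknox2. The mean of the members was itself nearly flat, at 0.04 and -0.11 without the drug and 0.14 and -0.07 with CCCP, since members with opposite gaps cancel in it. Brd3, a reader of acetylated histones, had 298 and 270 CPM in untreated explants, against 319 and 278 CPM with CCCP.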

How the data were processed

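RNA of 4 AGM explant libraries was measured, 2 in each group, and groups were taken from the titles. The count column of untreated replicate 1 is headed UM1, not UN1, per the file headers, and was assigned through the sample that holds it. The authors deposited raw counts of reads per gene, made with featureCounts 2.0.3 on an mm10 RefSeq annotation, per the file headers. HISAT2 and SAMtools are named, without roles, in the submitters' processing notes. Per the file headers, counting ignored strand, although the kit named in the labels is directional, and read pairs were not counted as fragments, so counts are not independent molecules and intervals from them are too narrow.

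All genes were tested with edgeR 4.0.16 (quasi-likelihood, TMM, filterByExpr with minimum count 10 and total 15, group as the sole term, two-sided, Benjamini-Hochberg, threshold 0.05) in R 4.3.3, and the code was tested on simulated data. Standard errors are the fold change divided by the square root of F. Gaps use log2 CPM with a prior count of 2. A permutation test of 2 against 2 libraries cannot go below 0.333, so none is given. Replicate ratios carry exact (Clopper-Pearson) intervals. GC content, from GENCODE transcripts, was known for 90.4% of the genes tested. From each list the 3 genes with the highest mean TPM and the one other gene with the smallest p are named. Of the 5 genes most like the members, 1 is not reported here. The members and lists were chosen with earlier results of these data known. Alternatives were DESeq2 1.42.0, other scalings, no filter, removal of length or GC trends, the replicate number as a block, and leaving out each library. Exons of the members overlap no other annotated gene on their chromosome, except those of Egr2. Total counts of 37360968 to 48827826 leave members on 28 to 7324 counts per library.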

Additional observations from a re-analysis of the deposited data

How the results depend on the processing

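With all libraries used, members called stayed at 0 in edgeR and DESeq2 under every alternative except the replicate block. That fit called 1 of 10, Ier2 (log2 fold change 0.48, edgeR adjusted p 0.0281, range over alternatives with all libraries 0.0281 to 0.636). It also called 2118 of all 19837 genes tested, a share near that of the members. With the replicate block and the length or GC trend removed, Ier2 was not called (edgeR adjusted p 0.0912 and 0.182). Libraries with the same number shared part of their deviation (correlation 0.36 across genes), but with 2 pairs and no label on the meaning of a number they were not treated as a pairing. Genes called, 0 in the fit reported, were 1107 without the filter, 594 in DESeq2, 2118 with the replicate block, 1242 and 775 when the block was joined by removal of a length or a GC trend, and 10 to 46 with 1 library left out, where the remaining library of a group is assumed to vary like the other group. The cause was not tested. The median of the members was -0.10 to 0.21 with 1 library left out and -0.11 when the block was joined by removal of the GC trend. Of 90 fold changes with all libraries, 11 turned sign: Ier3 at -0.048 with total counts only, Ier3 at -0.027 and Egr2 at 0.12 with the length trend removed (-0.032 and 0.082 with the block), and Fosb, Jun and Ier3 at -0.034, -0.043 and -0.12 with the GC trend removed (-0.095, -0.040 and -0.12 with the block). With 1 library left out, Fos ran from -0.39 to 0.15, Fosb from -0.47 to 0.53, Junb from -0.034 to 0.61, Egr1 from -0.51 to 0.56, Egr2 from -0.65 to 0.37 and Ier3 from -0.22 to 0.27. With the GC trend removed, the group difference of 1 member, Nr4a1, at -0.32, exceeded its larger gap of 0.21, as did 31.6% of all genes. In that setting 1 member had groups that did not overlap, again Nr4a1, where 22.2% of all genes lay above and 22.6% below. Without the filter 1 member had such groups, Ier2, where 18.6% of all genes lay above and 20% below. These last counts were added after seeing the data. Fosb and Egr2, on 28 to 158 counts per library, are the members limited most by depth.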

Other observations

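Genes that control the decay of unstable transcripts gave 0 calls of 15 in edgeR. At an unadjusted p under 0.05, though, 5 were lower and 0 higher, where 9.16% of all genes tested were lower. The median log2 fold change of the 15 was -0.10. The list shares Zfp36 with the immediate early genes. Xrn1, the cytoplasmic exonuclease that degrades decapped transcripts, had 115 and 110 CPM in untreated explants, against 74.8 and 82.2 CPM with CCCP, and a log2 fold change of -0.52 (edgeR adjusted p 0.195). The decay factors Zfp36l1, Khsrp and Hnrnpd, the most abundant of the list per length, overlapped between groups at log2 fold changes of -0.09, 0.07 and 0.06.

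Heat shock genes are often induced together with immediate early genes when tissue is handled. The 12 genes summed to 6095 and 7898 CPM in untreated explants, against 7552 and 8549 CPM with CCCP, and 6 of the 12 were lower and 1 higher in replicate 1 in both groups, against 33.2% and 31.0% of all genes tested. The other 5 were not in the same order in both groups. Of the list 0 were called, as were 0% of all genes tested. At an unadjusted p under 0.05 in edgeR, 1 was higher and 0 lower, against 5.45% and 9.16% of all genes tested. Hspb1, a small heat shock protein, had 16.4 and 20.5 CPM in untreated explants, against 24.1 and 38.5 CPM with CCCP, a log2 fold change of 0.76 (edgeR adjusted p 0.285). Hsp90ab1, Hspa8 and Hsp90aa1, the most abundant chaperones of the list, had log2 fold changes of 0.29, 0.26 and -0.27.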
